A study of Mus musculus with 6 samples.

Results

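Gas5, Snhg1, Snhg3, Snhg5, Snhg6, Snhg8 and Snhg12 are mouse genes that carry small nucleolar RNAs (snoRNAs) within their transcripts and whose spliced RNA has little or no coding capacity. Rows were selected by symbol alone, and the levels of these 7 genes were sought among the 34573 genes of the count table. Gas5, Snhg3 and Snhg12, 3 of the 7, have a row, and all 3 passed the filter on low counts. Snhg1, Snhg5, Snhg6 and Snhg8 have no row under these symbols or under their RefSeq synonyms, and their own levels are not analysed here. The sequences and snoRNA rows that belong to these 4 genes are given where the files allow.

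The RNA came from hematopoietic stem cells (HSCs), which the study defines as Lineage-negative Kit+Sca1+CD48-CD150+ cells. The HSCs were sorted from the bone marrow of adult Rpl22-/- mice and Rpl22+/+ mice, with 3 libraries of each genotype. Rpl22 encodes a protein of the large ribosomal subunit that also binds RNA. The knockout is a germline one, so every cell of the animal lacks the gene from conception, and the 3 libraries of Rpl22+/+ HSCs serve as controls. Between 9321123 and 13385850 reads per library lay on genes. Rpl22 itself had 449, 527 and 546 counts in the Rpl22-/- libraries against 6890, 7001 and 5031 in the Rpl22+/+ libraries, a log2 fold change of -3.75 (edgeR quasi-likelihood test, Benjamini-Hochberg over all genes, adjusted p = 2.97e-12), so every library matched its labelled genotype. All 12 HSC markers examined were detected well enough to be tested. Nothing in the labels says whether the libraries of a genotype came from separate animals, and p-values measure the spread between these samples, which may be technical.

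A snoRNA guides the modification or cleavage of ribosomal RNA, and most mammalian snoRNAs are cut out of the introns of a host gene after splicing. The spliced RNA left over from many hosts is exported, engages ribosomes over a short open reading frame and is then removed by nonsense-mediated mRNA decay (NMD). That pathway acts when exon junctions lie well downstream of a stop codon. Many hosts also begin with a 5' terminal oligopyrimidine (TOP) tract, a run of C and T at the cap that ties the translation of ribosomal protein mRNAs to growth signals, so the steady level of a host RNA reads both its transcription and its passage through the ribosome.

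The start of each host is shown first, because a pyrimidine run at the start site is the feature that hosts share with ribosomal protein mRNAs. RefSeq (GRCm38.p6) held start-site windows for 6 of the 7 genes, 7 windows in all. The windows were searched on the sense strand for a run of at least 5 pyrimidines that opens with C and begins within 15 bases of the start site. Such a run was present in 5 of the 7 member windows and in 38.6% of the 32851 mouse windows searched. The 60 bases around the start site of the 3 genes with a row are printed below with the run in capitals, for Gas5 at chr1:161035136-161035195 (plus strand), Snhg12 at chr4:132308648-132308707 (plus strand) and Snhg3 at chr4:132353657-132353716 (minus strand).
Gas5: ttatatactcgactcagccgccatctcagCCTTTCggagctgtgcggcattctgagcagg
Snhg12: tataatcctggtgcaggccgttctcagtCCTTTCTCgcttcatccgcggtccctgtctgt
Snhg3: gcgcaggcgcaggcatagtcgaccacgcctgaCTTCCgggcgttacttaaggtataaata
Gas5 and Snhg12 share the letters CCTTTC across the start site. In Snhg12 the run extends to CCTTTCTC, with 8 pyrimidines, while Snhg3 has the shorter run CTTCC, which begins 3 bases into the transcript. A second Gas5 start site, upstream of the one printed, had no such run. Neither had Snhg1, although its window holds tttttcctt, which opens with T and so does not meet the rule. Snhg8 had CTCTTT from the start site on. Snhg5 had CTTTT, which meets the search rule but begins only at base 10 and not at the start site.

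The first open reading frame of a host is what a scanning ribosome would meet, and its place relative to the exon junctions is the feature on which NMD acts. For each gene, the annotated spliced transcript (GENCODE M21, GRCm38) with the best support level and the most exons was read from its first ATG to the next stop codon in frame. These frames are printed for the 3 genes with a row, with the start and stop codons in capitals.
Gas5: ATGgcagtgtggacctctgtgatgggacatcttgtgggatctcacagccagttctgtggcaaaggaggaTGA
Snhg3: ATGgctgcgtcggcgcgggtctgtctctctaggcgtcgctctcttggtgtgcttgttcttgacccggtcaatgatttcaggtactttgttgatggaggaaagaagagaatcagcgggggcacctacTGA
Snhg12: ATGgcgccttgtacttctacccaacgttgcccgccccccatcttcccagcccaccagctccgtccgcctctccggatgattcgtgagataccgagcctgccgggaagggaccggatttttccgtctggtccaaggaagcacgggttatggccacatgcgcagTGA
Gas5 lies at chr1:161034422-161038539 on the plus strand, and its transcript of 502 bases is spliced from 12 exons. Its first frame has 23 codons, and 7 of its 11 exon junctions lie at least 50 bases downstream of the stop, the last one 315 bases away. Snhg12 lies at chr4:132308623-132311024 on the plus strand. Its transcript of 935 bases has 4 exons and a first frame of 54 codons, with 2 of its 3 junctions at least 50 bases downstream and the last one 159 bases away. Snhg3, at chr4:132348014-132353686 on the minus strand, differs from both. Its transcript of 437 bases has 3 exons, the frame of 42 codons ends in the last of them, and neither of its 2 junctions lies downstream of the stop. Over the 7 genes, 6 had at least 1 junction in the downstream position, counted from the first frame. No share over other spliced transcripts was computed beside this count. The first frame has only 3 codons in Snhg5 and 1 in Snhg8. The longest frame of Snhg5, with 66 codons, has 0 junctions in that position, so the count depends on the frame taken. These are properties of the annotated transcripts, and the counts do not tell isoforms apart, of which Gas5 has 25 annotated, 20 of them with a retained intron.

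Levels are given in reads per 1000000 reads on genes (CPM, counts divided by the library size after TMM scaling). The 3 host genes differed between the genotypes by less than the spread between libraries, and none of them passed the test. The number called at an adjusted p below 0.05 was 0 of 3 by the edgeR quasi-likelihood test, 0 by DESeq2 and 0 by limma-voom, and 0 of 3 had an unadjusted p below 0.05 in edgeR. Of all 14004 genes tested, 5.57% were called (3.28% higher and 2.29% lower in Rpl22-/- HSCs), and 22.3% had an unadjusted p below 0.05. With scaling by library size alone, 369 genes were called higher and 481 lower, in place of 459 and 321. For none of the 3 hosts were the libraries of one genotype all above those of the other, whereas 26.9% of all genes had libraries that did not overlap between genotypes. The median log2 fold change of the 3 hosts was -0.037, and that of all genes was -0.0068. Without replicate 2 of the Rpl22+/+ libraries, the median of the hosts became 0.15. In bulk RNA, fewer cells of a type and less RNA per cell cannot be told apart.

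Gas5, growth arrest-specific 5, which accumulates when translation is blocked or growth stops, was by far the most abundant of the 3. It had 5743, 4741 and 5227 counts in the Rpl22-/- libraries against 5473, 5649 and 3820 in the Rpl22+/+ libraries. In CPM these were 448, 395 and 397 against 420, 453 and 397. The highest library was a Rpl22+/+ one and the lowest a Rpl22-/- one, and the genotypes overlapped over nearly the whole range. The Rpl22-/- mean was 413 ± 29.9 CPM and the Rpl22+/+ mean 424 ± 28.1 CPM (SD, n = 3 each). The log2 fold change of Gas5 was -0.037 ± 0.0910 (SE), with an adjusted p of 0.852 in the edgeR quasi-likelihood test (Benjamini-Hochberg). Its 95% interval ran from -0.23 to 0.16, which corresponds to a change between -14.7% and 11.4%. Counting error contributed a coefficient of variation of at most 1.62% in any library. Of all genes tested, 12.7% had a smaller absolute log2 fold change than Gas5.

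Snhg3, the host of the Snora73 pair of H/ACA snoRNAs, had 250, 255 and 191 counts in the Rpl22-/- libraries against 230, 217 and 147 in the Rpl22+/+ libraries. These were 19.5, 21.2 and 14.5 CPM against 17.7, 17.4 and 15.3 CPM. Replicates 1 and 2 of the Rpl22-/- libraries were above every Rpl22+/+ library, and replicate 3 was below them all. The means were 18.4 ± 3.48 and 16.8 ± 1.30 CPM (SD, n = 3 each), with a log2 fold change of 0.13 ± 0.155 (SE) and an adjusted p of 0.683 (edgeR quasi-likelihood test, Benjamini-Hochberg). The 95% interval for Snhg3, -13.1% to 37.3%, was wider than that of Gas5, and its counting error reached 8.25% in the library with the fewest counts. Without replicate 3 of the Rpl22-/- libraries the log2 fold change was 0.27, and without replicate 2 it was 0.013.

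Snhg12, the host of Snora16a, Snora44, Snora61 and Snord99, had 325, 274 and 282 counts in the Rpl22-/- libraries against 267, 401 and 202 in the Rpl22+/+ libraries. On the CPM scale these were 25.3, 22.8 and 21.4 against 20.5, 32.2 and 21.0. Replicate 2 of the Rpl22+/+ libraries stood highest, and the other 2 of that genotype were below all 3 Rpl22-/- libraries. The means were 23.2 ± 1.98 and 24.6 ± 6.60 CPM (SD, n = 3 each). The log2 fold change of Snhg12 was -0.087 ± 0.163 (SE), with an adjusted p of 0.803 (edgeR quasi-likelihood test, Benjamini-Hochberg) and a 95% interval of -26.0% to 19.7%. Without replicate 2 of the Rpl22+/+ libraries the sign turned, to 0.16, with the adjusted p still above 0.05. Changes within the 95% intervals of the 3 genes remain compatible with these data from 3 libraries per genotype. The smallest change that could have been called was not computed.

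**Figure D1:**
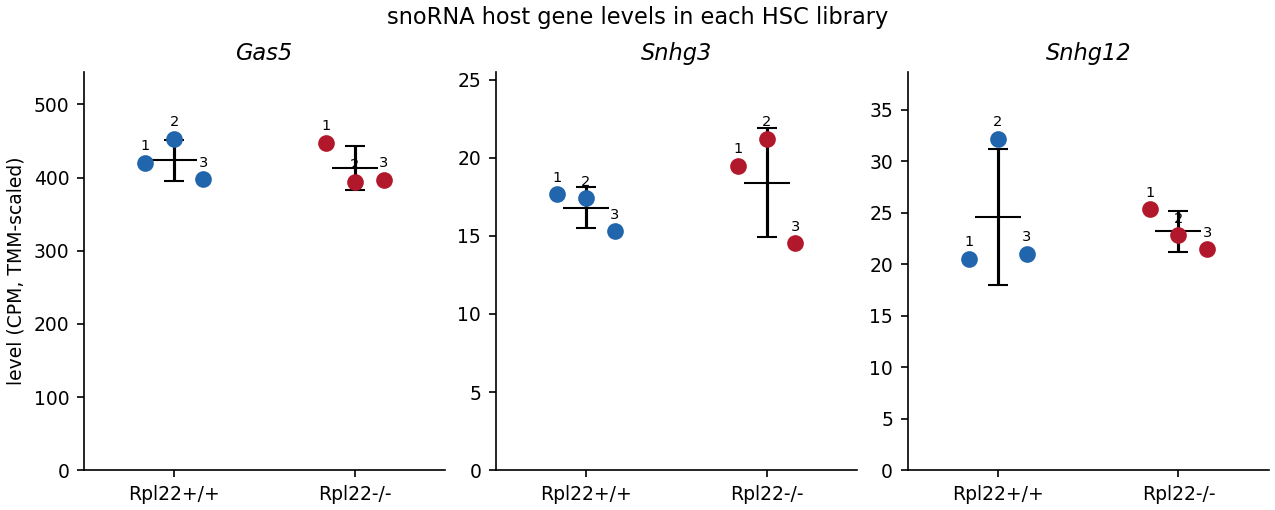
Level in CPM (TMM-scaled, linear axis from 0) of Gas5, Snhg3 and Snhg12 in each of the 6 HSC libraries, numbered by replicate, with the mean (horizontal bar) and SD (error bar, n = 3) per genotype. The genotypes overlap for every gene, and replicate 2 of Rpl22+/+ stands apart for Snhg12 at 32.2 CPM.

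Compared per length, the order of levels was Gas5, then Snhg3, then Snhg12. Per kilobase of the spliced transcript used above, Gas5 stood at 823 CPM in the knockout and 844 in the control, Snhg3 at 42.1 and 38.4, and Snhg12 at 24.8 and 26.3. Per kilobase of all annotated exon bases the values were 110 and 113 for Gas5, 18.7 and 17.0 for Snhg3, and 9.65 and 10.2 for Snhg12. Within each of the 6 libraries Gas5 was the highest and Snhg3 was above Snhg12 on both scales. Across libraries, the neighbours Snhg3 and Snhg12 came closest per kilobase of transcript, where the lowest Snhg3 value, 33.2 in an Rpl22-/- library, was under the highest Snhg12 value, 34.4 in an Rpl22+/+ library. The 3 genes together took 0.0422% to 0.0507% of the reads on genes, and Gas5 made up 90.0% to 91.7% of their summed CPM. Ratios within a library remove its scaling factor. The ratio of Gas5 to Snhg3 in CPM was 23.0, 18.6 and 27.4 in the Rpl22-/- libraries against 23.8, 26.0 and 26.0 in the Rpl22+/+ libraries. The ratio of Gas5 to Snhg12 was 17.7, 17.3 and 18.5 against 20.5, 14.1 and 18.9. Both ratios overlapped between the genotypes.

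The Snhg3 counts carry an uncertainty that the other 2 genes do not. Of its annotated exon bases, 71.5% are shared with exons of Gm17300, a non-coding gene on the opposite strand, and 13.7% with exons of Rcc1 on the same strand. The strand setting of the counting is not given in the sources used here, so reads of Snhg3 and of Gm17300 may not have been told apart. The levels of Snhg3 per kilobase, and their order against those of Snhg12, carry the same uncertainty. Gm17300, chosen after its values were seen, had 501, 599 and 598 counts in the Rpl22-/- libraries against 534, 567 and 336 in the Rpl22+/+ libraries, more than Snhg3 in each library. Its log2 fold change was 0.14 (edgeR quasi-likelihood test, Benjamini-Hochberg, adjusted p = 0.531). Gas5 and Snhg12 share exon bases with no annotated gene other than their own snoRNAs, although the span of Gas5 overlaps that of Zbtb37 on the opposite strand.

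The snoRNAs inside the hosts were examined next. The annotation places 27 snoRNA genes within the 7 hosts, 9 of them in Gas5 and 8 in Snhg1, and 10 of the 27 have a row. In 5 of these rows every library had a count of 0, among them Snord47 of Gas5, Snord22 of Snhg1 and Snora44, Snora61 and Snord99 of Snhg12. The libraries were made from polyadenylated RNA, and mature snoRNAs carry no poly(A) tail, so the counts in such rows are no measure of mature snoRNA. All 114 rows named as snoRNAs together held 0.00584% to 0.00800% of the reads on genes. Reads of a snoRNA row inside a host cannot be told apart from those of unspliced host RNA. Where the host has no row, the snoRNA rows still give counts from within the gene, and they are shown for Snhg6 and Snhg8. Mcmdc2, on the opposite strand, shares 127 exon bases with Snhg6 and has a row of its own under an older symbol, with 26, 38 and 27 counts against 29, 43 and 36.

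Snord87, a C/D box snoRNA, lies in an intron of Snhg6 at chr1:9942463-9942549 (minus strand), and Snora24, an H/ACA box snoRNA, within an exon of an annotated Snhg8 transcript at chr3:123507937-123508066 (minus strand). The sequences are printed because these 2 rows had the smallest p-values among the hosted snoRNAs. Capitals mark the C box and D box of Snord87 and the ACA box of Snora24.
Snord87: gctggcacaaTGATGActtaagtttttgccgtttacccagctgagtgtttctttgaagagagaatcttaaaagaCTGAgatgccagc
Snora24: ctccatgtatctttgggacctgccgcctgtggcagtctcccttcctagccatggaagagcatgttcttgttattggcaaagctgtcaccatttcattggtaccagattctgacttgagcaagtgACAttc
Snord87 had 18, 29 and 24 counts in the Rpl22-/- libraries against 55, 44 and 30 in the Rpl22+/+ libraries, which is 1.40, 2.41 and 1.82 CPM against 4.22, 3.53 and 3.12 CPM. Every Rpl22-/- library was below every Rpl22+/+ library. Of all genes tested, 26.9% had libraries that did not overlap, and Snord87 and Snora24 were chosen by their small p-values. The log2 fold change of Snord87 was -0.96 ± 0.312 (SE), and the adjusted p of 0.0818 (edgeR quasi-likelihood test, Benjamini-Hochberg) missed the threshold. Snora24 went the other way. It had 95, 91 and 86 counts against 76, 64 and 41, or 7.40, 7.57 and 6.53 CPM against 5.84, 5.14 and 4.27 CPM, so that the lowest Rpl22-/- library was above the highest Rpl22+/+ one. Its log2 fold change was 0.49 ± 0.209 (SE), with an adjusted p of 0.182 (edgeR quasi-likelihood test, Benjamini-Hochberg). Under the 17 other ways of processing, the log2 fold change of Snord87 stayed between -1.17 and -0.78 with adjusted p between 0.0563 and 0.281, and that of Snora24 between 0.37 and 0.60 with adjusted p between 0.177 and 0.427. Neither row was called under any of the 17.

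The rows inside Snhg3 and Snhg12 were lower in count. Snora73b of Snhg3 had 17, 22 and 10 counts in the Rpl22-/- libraries against 21, 35 and 15, a log2 fold change of -0.63 that was not called (edgeR quasi-likelihood test, Benjamini-Hochberg, adjusted p = 0.400). Snora73a had 2, 2 and 0 against 2, 2 and 1. Snora16a of Snhg12 had 24, 25 and 13 counts against 10, 37 and 17, with replicate 2 of Rpl22+/+ highest, as it was for Snhg12 itself. Its log2 fold change was -0.16 (edgeR quasi-likelihood test, Benjamini-Hochberg, adjusted p = 0.881). Over all snoRNA rows, 28 could be tested and 0 were called by edgeR, DESeq2 or limma-voom. Of the 28, 7 had an unadjusted p below 0.05 in edgeR, beside 22.3% of all genes tested. The median log2 fold change of the 28 rows was -0.28, beside -0.0068 over all genes. The snoRNA rows with the most counts outside the 7 hosts were Snord104 (log2 fold change -0.15), Snora28 (-0.50) and Snord69 (0.10), and none of them was called. Without replicate 1 of Rpl22-/-, Snora28 had -0.97 and was called (adjusted p = 0.0342, edgeR quasi-likelihood test, Benjamini-Hochberg), and Snord104 ran from -0.35 to -0.013 without single libraries.

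**Figure D2:**
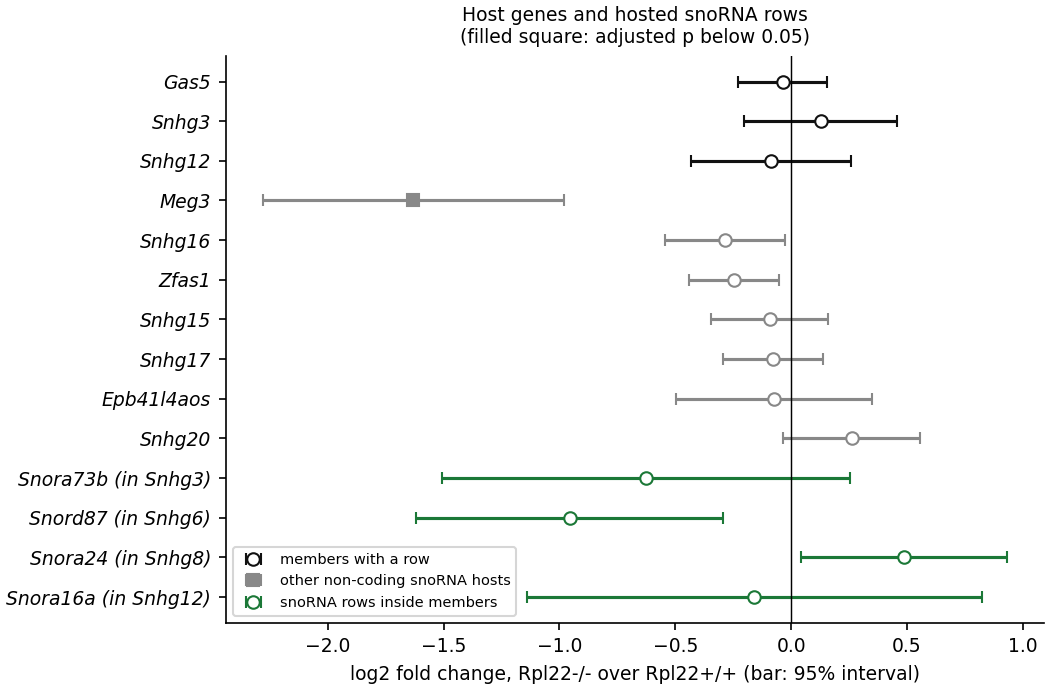
Log2 fold change (Rpl22-/- over Rpl22+/+, linear axis) with its 95% interval from the edgeR fit for the 3 hosts with a row, 7 other non-coding snoRNA hosts and the 4 tested snoRNA rows inside the hosts. The intervals of Gas5, Snhg3 and Snhg12 all span 0, and Meg3 (filled square, -1.63) is the only gene plotted with an adjusted p below 0.05.

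Other non-coding snoRNA hosts were described beside them. Of 17 listed, 9 had a row, under an older symbol in 6 cases, and 7 were tested. The median log2 fold change of the 7 was -0.092, with 6 below 0 and 1 above. Of the 7, 1 was called, beside 5.57% of all genes tested. That gene was Meg3, an imprinted non-coding RNA, with 302, 66 and 139 counts in the Rpl22-/- libraries against 520, 546 and 377, all 3 below the lowest Rpl22+/+ library in CPM. Meg3 fell by 1.63 on the log2 scale (adjusted p = 0.00904, edgeR quasi-likelihood test, Benjamini-Hochberg), and its adjusted p in DESeq2 was 0.0606. Without replicate 3 of the Rpl22-/- libraries Meg3 was not called in edgeR (adjusted p = 0.0743). Zfas1, another host known for its TOP tract, and Snhg16 also had libraries that did not overlap between genotypes. Such separation was found in 3 of the 7, beside 26.9% of all genes tested. Both genes were named for their small p-values in this list. Zfas1 had 67.0, 57.4 and 60.9 CPM against 71.0, 78.6 and 70.2, a log2 fold change of -0.25 with an adjusted p of 0.123 (edgeR quasi-likelihood test, Benjamini-Hochberg). Snhg16 had 24.2, 20.6 and 24.0 CPM against 27.4, 29.9 and 26.4, a log2 fold change of -0.28 with an adjusted p of 0.183 in the same edgeR test. The other 4 tested hosts were named after their values were seen, to complete the list. Snhg15, Snhg17 and Epb41l4aos had log2 fold changes of -0.092, -0.078 and -0.073, close to those of Gas5 and Snhg12, and Snhg20 had 0.26. Snhg9 and Snhg11 were too low to test.

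Genes that encode a protein and carry snoRNAs in their introns share the splicing step with the 7 hosts, and their exons are kept as mRNA. None of 12 such hosts outside the ribosomal proteins was called by edgeR, and their median log2 fold change was 0.061. DESeq2 called 2 of them and limma-voom 1. In edgeR, 5 of the 12 had an unadjusted p below 0.05, beside 22.3% of all genes tested. Eif4a2, an RNA helicase of translation initiation and a host of several snoRNAs, had -0.31 (edgeR quasi-likelihood test, Benjamini-Hochberg, adjusted p = 0.0704). Rack1, a scaffold protein of the small ribosomal subunit listed under an older symbol, had 0.34 (adjusted p = 0.0501), and Wdr43, a small-subunit processing factor, had 0.25. Of 23 ribosomal protein genes that host snoRNAs, 17 were above 0 and 0 were called by edgeR. Of the same 23, 6 had an unadjusted p below 0.05 in edgeR, beside the same 22.3%, and DESeq2 called 3 and limma-voom 0. Their median log2 fold change was 0.12, and Rpl7a, Rpl23a and Rpl23, proteins of the large subunit, had 0.32, 0.30 and 0.26. Of 20 other mRNAs known to begin with a TOP tract, 1 was called, beside 5.57% of all genes tested. In edgeR, 5 of the 20 had an unadjusted p below 0.05, beside the same 22.3%. Hnrnpa1, an RNA-binding splicing regulator, rose by 0.36 (adjusted p = 0.0466, edgeR quasi-likelihood test, Benjamini-Hochberg). The call was lost when any single library other than replicate 1 of Rpl22-/- was left out. The median of the 20 was 0.096, and Npm1, a nucleolar chaperone, had 0.33 without passing the test (adjusted p = 0.126). The 3 hosts with a row lay between -0.087 and 0.13, and no test of a difference between the lists was made.

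Genes of the NMD pathway itself were examined next, although decay of the host RNAs was not measured. Of 27 genes of the NMD machinery, 2 were called, both higher in Rpl22-/- HSCs, beside 5.57% of all genes tested. Of the 27, 7 had an unadjusted p below 0.05 in edgeR, beside 22.3% of all genes tested. The median log2 fold change of the 27 was 0.035. Rbm8a, a core subunit of the exon junction complex that marks splice junctions, had 109, 146 and 151 CPM in the Rpl22-/- libraries against 95.9, 94.5 and 89.4. Rbm8a rose by 0.54 (adjusted p = 0.0130, edgeR quasi-likelihood test, Benjamini-Hochberg). Rnps1, which associates with that complex, rose by 0.39 (adjusted p = 0.0282 in the same edgeR test). Dcp2, the decapping enzyme, had -0.27 without passing the test (adjusted p = 0.0572). The count of 2 became 1 without replicate 2 of either genotype, 0 without replicate 3 of Rpl22-/- or replicate 1 or 3 of Rpl22+/+, and 4 without replicate 1 of Rpl22-/-. Of 11 mRNAs known as NMD substrates, 9 were tested and 1 was called, beside the same 5.57%. An unadjusted p below 0.05 in edgeR was found for 2 of the 9, beside the same 22.3%. Atf4, the transcription factor of the integrated stress response, rose by 0.38 (adjusted p = 0.0282, edgeR quasi-likelihood test, Benjamini-Hochberg), and this call too held without a single library only when replicate 1 of Rpl22-/- was the one left out. Ern1, a sensor of unfolded protein, and Ddit3, a stress-induced transcription factor, had -0.32 and -0.21 without passing the test, and the median of the 9 was -0.024. Ern1 was called without replicate 1 of Rpl22-/- (-0.45, adjusted p = 0.0180, edgeR quasi-likelihood test, Benjamini-Hochberg) and with no filter (adjusted p = 0.0195), and had -0.17 without replicate 2 of Rpl22-/-.

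Proteins that assemble on snoRNAs were counted in the same way. Of 18 genes for core proteins and assembly factors of snoRNA particles, 16 were above 0. Of the 18, 4 were called, all higher in the Rpl22-/- libraries, beside 3.28% of all genes tested called higher. In edgeR, 7 of the 18 had an unadjusted p below 0.05, beside 22.3% of all genes tested. The median of the 18 was 0.14 on the log2 scale. Fbl, the methyltransferase of C/D box particles, had 218, 308 and 256 CPM in the Rpl22-/- libraries against 185, 190 and 179. Fbl rose by 0.50 ± 0.108 (SE, adjusted p = 0.0168, edgeR quasi-likelihood test, Benjamini-Hochberg). Nop10 and Gar1, core subunits of H/ACA box particles, rose by 0.44 and 0.38 (adjusted p = 0.0366 and 0.0267 in the same edgeR test), and Nolc1, a nucleolar chaperone of both kinds of particle, rose by 0.46 (adjusted p = 0.0288). Every Rpl22-/- library was above every Rpl22+/+ library for each of these 4 genes. They were named for their calls in the same libraries, so this separation is no further support. Over the 18 genes, 7 had libraries that did not overlap, beside 26.9% of all genes tested. The calls depended on the libraries used. Of the 18 genes, 6 were called without replicate 1 of Rpl22-/-, 1 without replicate 2 of Rpl22-/-, and 0 without replicate 3 of Rpl22-/- or without any one Rpl22+/+ library. With the trend in transcript length or in GC content removed, 2 were called.

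**Figure D3:**
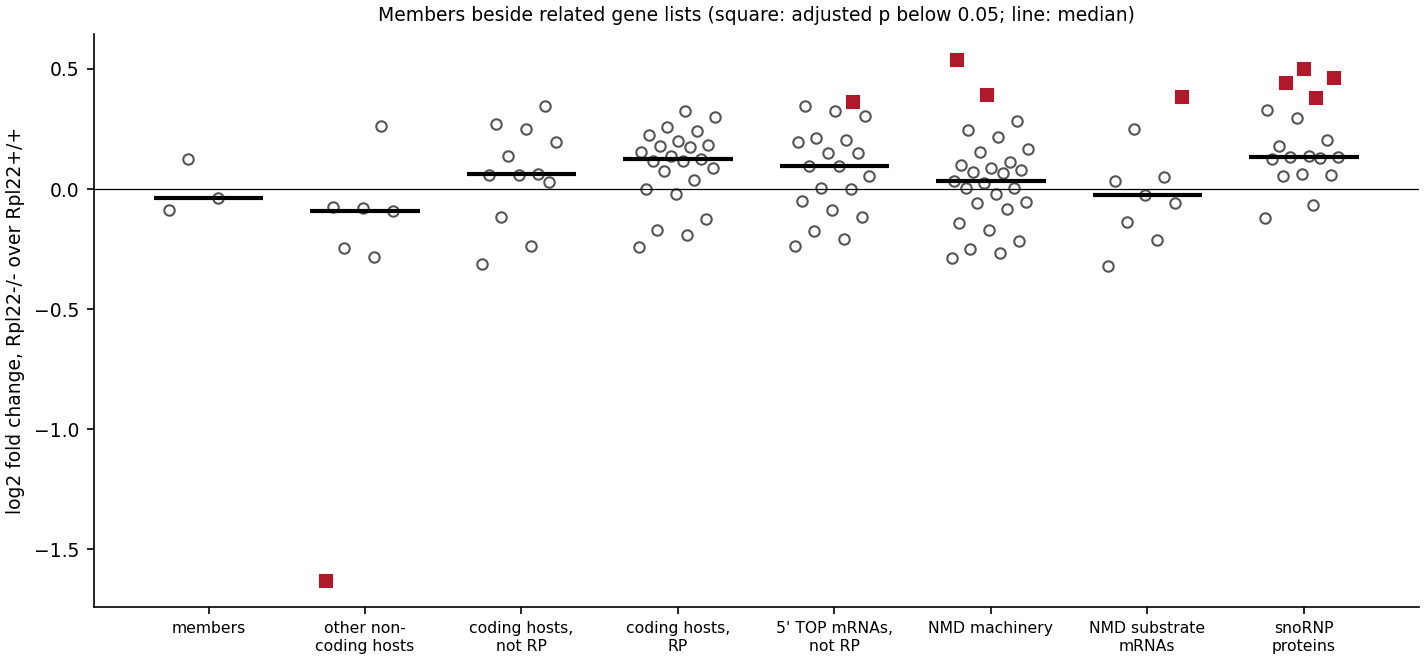
Log2 fold change (Rpl22-/- over Rpl22+/+, linear axis) of each tested gene, by list, with the median of the list as a line and genes at an adjusted p below 0.05 (edgeR) as squares. The 3 hosts lie between -0.087 and 0.13, and Meg3 is the lowest point at -1.63. Squares above 0 mark 4 of 18 snoRNA particle proteins, beside 3.28% of all genes tested called higher.

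Markers of blood cell types were counted too. Of all genes tested, 5.57% were called by edgeR and 3.28% were called higher in Rpl22-/- HSCs. Of 8 megakaryocyte markers, 6 were called higher in Rpl22-/- HSCs (Pf4, Itga2b, Gp9, Gp1bb, Gp5 and Selp), and the summed level of the 8 was 1093 to 1330 CPM in the Rpl22-/- libraries against 760 to 991. Of 9 neutrophil markers, 2 were called higher by edgeR (Ctsg and Camp), 1 by DESeq2 and 1 by limma-voom, with sums of 100 to 225 CPM against 66.9 to 106 that overlapped. The high end was replicate 2 of Rpl22-/-, where Mpo, the myeloperoxidase of granules, stood at 101 CPM against 13.9 and 17.1 in the other Rpl22-/- libraries. Of 12 HSC markers, 1 was called (Fgd5, lower), and the sums were 2862 to 3174 against 3059 to 3089. Car1, of the 10 erythroid markers, was called lower by edgeR and not by limma-voom, and its libraries overlapped between genotypes. DESeq2 called 1 of the 4 erythroid markers tested. No B cell or T cell marker was called by edgeR among the 2 of each list that could be tested, and Ms4a1, Igll1 and Cd3e were at 0 in every library. Whether the marker transcripts came from other cells or from the HSCs themselves was not tested. Any part of other cells in the values of the snoRNA particle, NMD and TOP lists was not tested either.

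The protein-coding genes next to the hosts were examined as a view of the surrounding chromosome. Of the 14 nearest genes, 1 on each side of each host, 10 were tested. Of these, 0 were called by edgeR, DESeq2 or limma-voom, and edgeR called 5.57% of all genes tested. In edgeR, 1 of the 10 had an unadjusted p below 0.05, beside 22.3% of all genes tested. The median log2 fold change was 0.026, and values ran from -0.37 for Mcmdc2 to 0.23 for Slc3a2. Slc3a2, the heavy chain of an amino acid transporter, starts 106 bases from Snhg1 and was higher in every Rpl22-/- library than in any Rpl22+/+ library (edgeR quasi-likelihood test, Benjamini-Hochberg, adjusted p = 0.136). Libraries did not overlap between genotypes in 26.9% of all genes tested. On the other side of Snhg1, Wdr74 had -0.11. Beside Gas5, Zbtb37 had -0.073. Beside Snhg3, Rcc1 had 0.020 and Phactr4 had 0.080, and beside Snhg12, Trnau1ap had 0.23 (adjusted p = 0.258 in the same edgeR test). Syncrip and Zfp949, on either side of Snhg5, had -0.089 and 0.032. Tcf24, Prss12, Ndst3 and Rab42 were too low to test.

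The pattern of the 3 hosts over the libraries was also compared with that of other genes. The mean of their log2 levels, each centred on its own average, was 0.12, 0.050 and -0.16 in the Rpl22-/- libraries against -0.058, 0.19 and -0.14 in the Rpl22+/+ libraries. Replicate 3 was the lowest of its genotype in both. Likeness to this mean was measured as the root-mean-square difference over the 6 libraries among 10643 genes with a mean log2 CPM of at least 3. The 5 nearest genes were Hibch (0.0290), an enzyme of valine breakdown, Ostm1 (0.0471), a subunit of a lysosomal chloride channel, Dbt (0.0472), of the branched-chain keto acid dehydrogenase, 2310022B05Rik (0.0478) and Bcap29 (0.0478), a protein of the endoplasmic reticulum. The median over all candidates was 0.191. Gas5 itself stood at 0.0808, Snhg12 at 0.128 and Snhg3 at 0.135, farther from their own mean than the 5 genes chosen for likeness to it.

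**Figure D4:**
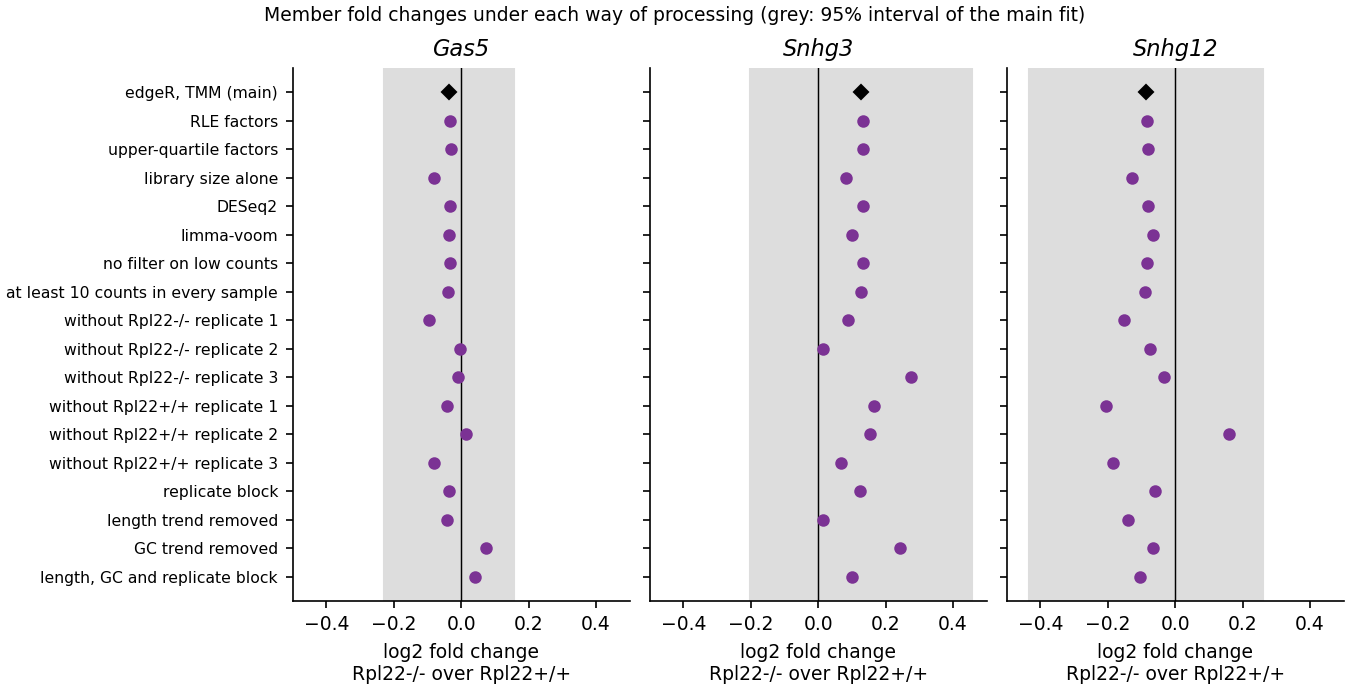
Log2 fold change (Rpl22-/- over Rpl22+/+, linear axis) of Gas5, Snhg3 and Snhg12 in the edgeR fit with TMM scaling (diamond) and under 17 other ways of processing (circles), with the 95% interval of the first in grey. Every circle lies within the grey interval, and none was called; Snhg12 reaches 0.16 without replicate 2 of Rpl22+/+.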

How the data were processed

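RNA of sorted HSCs was made into TruSeq polyadenylated RNA libraries. Per the study's methods and the submitters' notes, the authors aligned reads to mm10 with TopHat2 2.1.1 and deposited the HTSeq count of reads per gene, unnormalized. The annotation and strand setting behind the counts are not given in the sources used here. The 5 HTSeq total lines (58.6% to 60.9% of all counts) entered neither library sizes nor tests, and 0 sample columns were left unused.

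Counts were fitted with edgeR 4.0.16 under R 4.3.3. Of 34573 genes, 14004 passed filterByExpr (minimum count 10). Libraries were scaled by TMM, and genotypes were compared over all 6 libraries by the quasi-likelihood test, with p-values adjusted by Benjamini-Hochberg. A standard error is the size of the log2 fold change divided by the square root of its F statistic, and 95% intervals use the t distribution on the moderated degrees of freedom. Precision rests on 3 libraries per genotype. Members and lists were chosen with earlier results of these data known. Genes named are Rpl22, the members, the 3 smallest p-values and every called gene of each list, the nearest coding gene on each side of each host, the 5 genes most alike in pattern, and the snoRNA rows inside hosts and with most counts. Genes outside this rule are marked, and a gene within it is not reported here. Symbols were matched to GENCODE M21 for 30814 genes, 1809 through an older symbol. The alternatives were DESeq2 1.42.0, limma-voom 3.58.1, other scaling factors, other filters, length and GC trends, a replicate block and each library left out. The fits were tested on simulated data. Replicates differed beyond counting noise in every pair (chi-square per degree of freedom at least 4.08).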

Additional observations from a re-analysis of the deposited data

How the results depend on the processing

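None of Gas5, Snhg3 and Snhg12 was called under any of the 17 alternatives, which include 1 fit by DESeq2 and 1 by limma-voom. Over these, the log2 fold change ran from -0.094 to 0.074 for Gas5, from 0.013 to 0.27 for Snhg3 and from -0.21 to 0.16 for Snhg12, and the lowest adjusted p for any of them was 0.332. Gas5 turned to 0.074 with the GC trend removed and to 0.041 with the length and GC trends removed with a replicate block. Leaving out single libraries gave -0.094 to 0.014 for Gas5, -0.21 to 0.16 for Snhg12 and -0.094 to 0.15 for the median of the hosts, and the sign of these 3 turned without replicate 2 of Rpl22+/+. The cause was not tested. Of 731 values (43 genes named with a fold change, 17 alternatives each), 628 had the same direction and side of the threshold as reported.

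The sign of other named genes turned as follows. By library size alone, Rcc1 had -0.027 and Zfp949 -0.011. With the length trend removed, Zbtb37 had 0.025 and Snord69 -0.015. With the GC trend removed, Zbtb37 had 0.016, Rcc1 -0.044 and Syncrip 0.10, and with both trends removed and the block, Zbtb37 had 0.082, Rcc1 -0.050 and Syncrip 0.14. Without single libraries, Rcc1 ran from -0.11 to 0.16, Zbtb37 from -0.15 to 0.065, Syncrip from -0.15 to 0.015, Zfp949 from -0.027 to 0.070, Phactr4 from -0.022 to 0.14 and Snora16a from -0.55 to 0.41.

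The genes called among all genes were 780, against 1422 with no filter, 484 with the GC trend removed and 127 to 1720 without single libraries. Called counts of the lists moved as follows. Coding hosts outside the ribosomal proteins went from 0 to 1 with RLE or upper-quartile factors, library size alone, limma-voom or the length trend removed, and to 2 with DESeq2 or no filter (0 to 4 without single libraries). Ribosomal protein hosts went from 0 to 3 with DESeq2 and 2 with no filter (0 to 4). TOP mRNAs went from 1 to 2 with RLE or upper-quartile factors, DESeq2, limma-voom or the GC trend removed, and to 3 with no filter (0 to 3). The NMD machinery went from 2 to 4 with DESeq2 and 3 by library size alone (0 to 4). NMD substrates went from 1 to 2 with no filter and to 0 with the length trend, the GC trend, or both and the block (0 to 2). snoRNA particle proteins went from 4 to 2 with the length or GC trend removed, 3 with both and the block, and 6 with no filter (0 to 6), and other non-coding hosts from 1 to 0 with DESeq2 (0 to 2).

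Samples of the same number did not deviate together (correlations -0.103, 0.0549 and 0.0448), and 2 of 6 correlated best with their own number, so the numbers were not taken as pairs. With the replicate block, 904 genes, 0 of the 3 hosts and 0 TOP mRNAs were called. The likeness values were not recomputed under the alternatives. Without replicate 1 of Rpl22-/-, named genes that were not called passed the threshold, namely Zfas1, Eif4a2, Rack1, Wdr43, Rpl23, Rpl23a, Rpl7a, Npm1, Dcp2, Ern1 and Snora28. Counting error in the library with the fewest counts was 1.62% for Gas5, 8.25% for Snhg3 and 7.04% for Snhg12. The 4 hosts without a row were not analysed here.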
